A study of Homo sapiens with 8 samples.

Results

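The mRNAs of 10 epithelial chemokines were followed across the 4 cell lines of a breast cancer progression series: CXCL1, CXCL2, CXCL3, CXCL5, CXCL6, CXCL8, CXCL14, CXCL16, CCL20 and CCL28. These 10 were chosen from the chemokine family, with earlier results of these data known, out of the 56632 genes in the table, of which 29419 had a count in at least 1 library. The levels of the members are therefore given as a description, with fold changes and standard errors and no p-value. All 10 were matched to the table by Ensembl identifier, and 8 passed the filter on low counts, since CXCL5 and CXCL6 had almost no counts.

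Chemokines are small secreted proteins that bind G-protein-coupled receptors on passing cells and draw those cells toward the source. CXCL1, CXCL2, CXCL3, CXCL5, CXCL6 and CXCL8 share a Glu-Leu-Arg motif ahead of their first cysteines, bind CXCR2 (CXCL6 and CXCL8 also bind CXCR1) and attract neutrophils, and their genes lie in 1 cluster on chromosome 4. Epithelial cells make them after inflammatory signals, largely through the transcription factor NF-κB. The remaining members act on other cells: CXCL14 is a constitutive chemokine of skin and mucosa, CXCL16 is a membrane-bound ligand of CXCR6, CCL20 is the ligand of CCR6 on dendritic cells and Th17 cells, and CCL28 is a mucosal ligand of CCR10 and CCR3.

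The lines share 1 genetic origin. M1 is MCF10A, an immortalized mammary epithelial line that forms no tumors. M2 is MCF10AT1k.cl2, obtained from MCF10A by transfection of activated T24-HRAS and passage through a xenograft. M3 (MCF10Ca1h) and M4 (MCF10CA1a.cl1) both came from carcinomas that grew out of M2 xenografts and so carry the same HRAS history. In xenografts most M3 tumors are of low grade and stay differentiated, which M4 tumors largely do not, and M4 cells can settle in the lung. Each stage is represented by 1 line, so a difference between stages is also a difference between lines. RNA came from acini grown for 8 days in medium with 2.5% Matrigel and 2% horse serum, in 2 biological replicates per line. M1 and M2 received EGF at 10 ng/ml and M3 and M4 received none ("M2-M2" in the methods was read as M1-M2), so line and EGF cannot be told apart in any comparison of M3 or M4 with M1 or M2. M2 against M1 and M4 against M3 were the comparisons within 1 medium.

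Library totals ran from 69669970 to 107350344 counts, so that 3 counts, taken here as the detection limit, correspond to 0.0279 to 0.0431 CPM (counts scaled to a common library size). Spearman's rho between replicates, across 13483 genes with at least 20 counts in every library, was 0.998 in M2 and 0.971 to 0.986 in the other lines. The chi-square per degree of freedom over these genes, lower for closer libraries, was 6.95 in M2 and 136 to 361 in the other lines. The study's own expression table names 2 of the 8 libraries the other way round from the sample labels: the library labelled M1 replicate 2 stands there as M2, and the library labelled M2 replicate 1 as M1. The labels were followed throughout. For the fold changes of members against M1 or M2, and for the called genes named from lists, what changed with the 2 libraries exchanged or both left out is given beside the result. HRAS did not mark the M2 libraries, with 154 and 139 CPM (M1) and 160 and 154 CPM (M2) (log2 fold change 0.10, SE 0.15, adjusted p = 0.736 by edgeR), and 269 to 352 CPM in M3 and M4. M1 and M2 below therefore mean the libraries labelled so. All 9 basal and 6 luminal epithelial markers were detected. The basal markers summed to 9530 to 11934 CPM (M1), 15952 to 16067 (M2), 18048 to 18481 (M3) and 9273 to 10399.7 (M4). The sum was highest in M3, as CXCL1 was, but the genes did not all rise there. In M3 against M2 the log2 fold changes were 1.68 for ITGB4, 1.47 for LAMB3, 1.37 for KRT14 and 1.27 for KRT6A. They were 1.07 for EPCAM, 0.30 for KRT17, -0.20 for CDH1, -0.56 for KRT5 and -0.57 for TP63. Of the 24 basal calls over the 6 comparisons, 15 were kept with the 2 libraries exchanged and 17 with both left out. The luminal markers summed to 1228 to 1339.8 CPM (M1), 1614 to 1655 (M2), 2081 to 2309 (M3) and 2725 to 4404 (M4). These sums had the same order of lines as CXCL8, likewise without overlap, but the genes went opposite ways. In M4 against M1 the log2 fold changes were 2.00 for KRT18, 1.27 for KRT8 and 1.08 for FOXA1. They were -0.60 for ESR1, -1.77 for KRT19 and -2.47 for GATA3. Of the 10 luminal calls over the 6 comparisons, 4 were kept with the 2 libraries exchanged and 8 with both left out. Of the leukocyte markers, PTPRC, CD3E and MS4A1 stayed under 20 counts in every library, as did COL1A2, COL3A1 and LUM of the fibroblast markers and CDH5 of the endothelial ones. The summed level of the 7 leukocyte markers used was 23.6 to 38.5 CPM (M1), 11.8 to 12.2 (M2), 8.66 to 31.2 (M3) and 41.4 to 54.3 (M4), but these genes went opposite ways. CD68, a lysosomal protein, made up 51.4 and 39.0 CPM of the M4 sums and rose in M4 against M1 (log2 2.73, adjusted p = 0.0199 by edgeR, and 0.164 with the doubted libraries left out). CD14 fell (log2 -3.65, adjusted p = 0.00228, and 0.0703 with the libraries exchanged), LYZ was called lower (log2 -3.50) only by the labels as given, and ITGAM was not called (log2 -1.98). The fibroblast markers summed to 9.36 to 60.3 CPM (M1), 72.7 to 74.7 (M2), 10.1 to 16.1 (M3) and 6.43 to 7.60 (M4), and the endothelial ones to at most 3.21 CPM. The part of these epithelial and other markers in the chemokine values was not tested. These are bulk libraries, in which a change in the number of cells that transcribe a gene and a change in RNA per cell cannot be told apart.

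The promoters of the cluster genes are shown first, because they carry the same short sequence whatever the level of the gene. Each window runs from 250 bases before to 50 bases after the start site, in RefSeq's human table (GRCh38.p14), and 9 of the 10 members had an entry (CXCL16 had none). Capitals mark matches to the 9-base κB sequence GGAATTTCC together with overlapping matches to the NF-κB consensus. CXCL1 and CXCL2 are shown as close copies that differ in how their mRNA varied among lines, CXCL8 as the member with the widest range among the cluster genes, CXCL6 as a copy with almost no mRNA, and CXCL14 as a gene outside the cluster. On that build the windows are chr4:73869143-73869442 (CXCL1, plus strand), chr4:74099146-74099445 (CXCL2, minus), chr4:73740319-73740618 (CXCL8, plus), chr4:73836428-73836727 (CXCL6, plus) and chr5:135578942-135579241 (CXCL14, minus).
CXCL1: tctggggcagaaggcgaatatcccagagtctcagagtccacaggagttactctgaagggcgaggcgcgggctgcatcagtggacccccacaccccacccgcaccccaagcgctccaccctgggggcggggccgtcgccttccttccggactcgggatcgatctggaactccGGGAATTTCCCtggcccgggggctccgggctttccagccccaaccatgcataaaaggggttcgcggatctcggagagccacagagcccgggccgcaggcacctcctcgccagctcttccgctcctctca
CXCL2: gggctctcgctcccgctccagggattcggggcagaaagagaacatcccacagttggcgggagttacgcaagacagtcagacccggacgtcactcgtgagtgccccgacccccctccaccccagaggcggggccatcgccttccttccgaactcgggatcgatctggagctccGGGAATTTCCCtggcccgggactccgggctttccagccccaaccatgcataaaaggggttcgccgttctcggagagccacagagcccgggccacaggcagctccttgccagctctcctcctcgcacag
CXCL8: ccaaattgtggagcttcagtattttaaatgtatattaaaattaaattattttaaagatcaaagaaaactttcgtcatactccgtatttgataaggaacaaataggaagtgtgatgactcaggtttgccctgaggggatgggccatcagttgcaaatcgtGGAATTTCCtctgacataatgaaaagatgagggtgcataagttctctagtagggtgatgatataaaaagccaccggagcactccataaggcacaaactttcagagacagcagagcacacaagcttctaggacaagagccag
CXCL6: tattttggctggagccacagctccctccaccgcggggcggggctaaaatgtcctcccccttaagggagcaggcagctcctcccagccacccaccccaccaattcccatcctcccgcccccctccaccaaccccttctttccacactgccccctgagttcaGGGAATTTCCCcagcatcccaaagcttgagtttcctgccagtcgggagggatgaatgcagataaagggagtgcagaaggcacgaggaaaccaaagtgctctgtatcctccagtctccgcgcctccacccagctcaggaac
CXCL14: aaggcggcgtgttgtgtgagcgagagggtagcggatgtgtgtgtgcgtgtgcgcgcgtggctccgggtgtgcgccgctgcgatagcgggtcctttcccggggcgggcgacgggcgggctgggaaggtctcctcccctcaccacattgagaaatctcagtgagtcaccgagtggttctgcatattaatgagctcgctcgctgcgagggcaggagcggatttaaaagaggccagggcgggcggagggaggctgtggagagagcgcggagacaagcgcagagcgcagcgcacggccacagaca

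The sequence GGAATTTCC, searched on both strands, stood in the windows of CXCL1, CXCL2, CXCL3, CXCL5, CXCL6 and CXCL8, that is in 6 of the 9 members with a window, against 162 of all 35116 human windows (0.461%). Its first base lay 77 to 78 bases before the start site in CXCL1, CXCL2 and CXCL3 and 89 to 91 bases before it in CXCL5, CXCL6 and CXCL8. The NF-κB consensus, which overlaps it, matched CXCL1, CXCL2, CXCL3, CXCL5, CXCL6 and CCL20 (5.91% of all windows), and the CXCL8 sequence fell outside that consensus. The AP-1 sequence TGANTCA was found in CXCL8 and CXCL14 (7.71% of all windows), TATAAA in CXCL8 and CCL20 (11.5%), and the C/EBP sequence TTGCNNAA in CXCL2 alone (10.5%). The 6 cluster genes are copies of one another, so these matches are not 6 separate occurrences. A match is a run of letters and says nothing of whether a factor was bound in these cells.

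**Figure D1:**
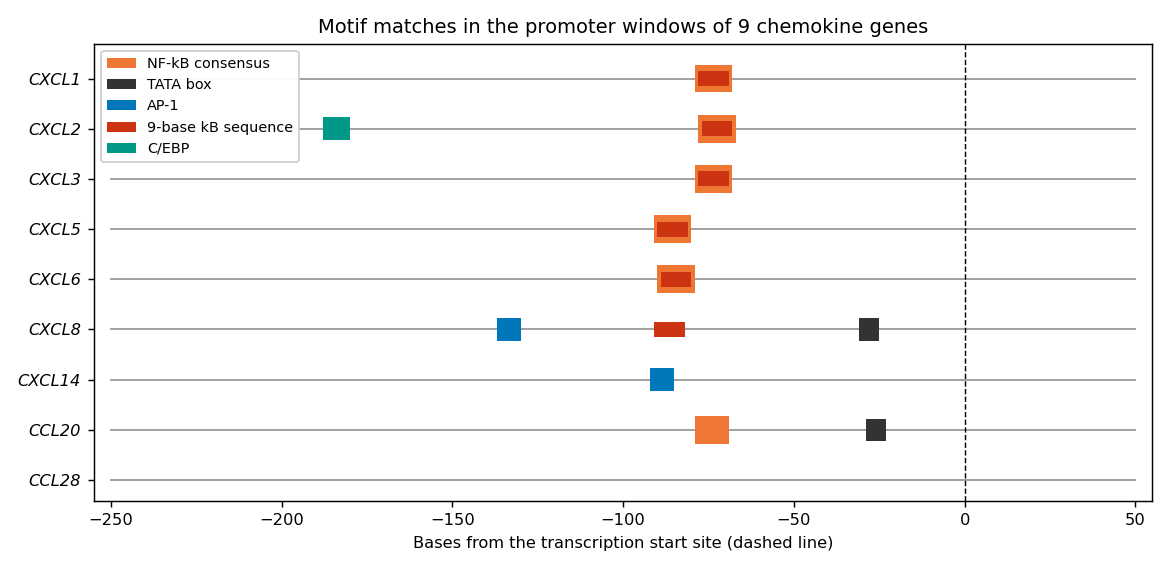
Positions of motif matches in the promoter windows of the 9 chemokine genes with an entry, drawn as bars along the distance in bases from the transcription start site (dashed line); bar height only separates overlapping motifs. The 9-base κB sequence sits 77 to 91 bases before the start in all 6 genes of the chromosome 4 cluster that are members, and CCL28 has no match.

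CXCL8 (interleukin-8, a neutrophil attractant) lies at chr4:74606236-74609433 on the plus strand (GRCh37) with 4 exons. It measured 1.11 and 1.95 CPM (M1), 5.65 and 4.72 (M2), 76.0 and 61.9 (M3), and 227 and 135 (M4). A gene was called where its adjusted p in edgeR was under 0.05 and its log2 fold change beyond 1 in either direction, and for members a call is only a description. The 4 lines did not overlap in CXCL8, and their order from lowest to highest was M1, M2, M3, M4. The step from M1 to M2 was 3.39-fold (log2 1.76, SE 0.33), from M2 to M3 log2 3.73 (SE 0.34) and from M3 to M4 2.63-fold (log2 1.40, SE 0.31). Between the ends of the series the log2 fold change was 6.89 (SE 0.40). With the 2 doubted libraries left out, the log2 fold changes against M1 were 2.09 in M2 (not called), 5.96 in M3 and 7.35 in M4, and against M2 3.87 in M3 and 5.26 in M4. With them exchanged, the log2 fold change of M2 against M1 was -0.03, each line then holding 1 low and 1 high library, while M4 stood above M1 by 5.74 and above M2 by 5.77. The calls of CXCL8 in M3 were lost in that case, at log2 4.34 against M1 and 4.37 against M2, as was that of M4 against M3 (1.40). The step from M3 to M4 rested partly on M4 replicate 1 and was 0.97 without it.

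CXCL1 (GROα, a ligand of CXCR2) lies at chr4:74735110-74737025 on the plus strand with 4 exons. It measured 7.70 and 18.3 CPM (M1), 11.3 and 10.8 (M2), 99.9 and 107.2 (M3), and 58.5 and 22.1 (M4). M3 was highest and M4 second, with no overlap, whereas the M2 libraries lay between the 2 of M1. The log2 fold change of M3 was 2.99 (SE 0.54) against M1 and 3.23 (SE 0.54) against M2. The M4 libraries were far apart, and the log2 fold change against M1 was 1.63 (SE 0.51) with both, but 0.77 without M4 replicate 1 and 1.16 without M1 replicate 1. Exchanging the doubted libraries gave 3.45 for M3 against M1 and 2.08 for M4 against M1, and leaving them out gave 3.75 and 2.39. Against M2 the exchange gave 2.83 for M3 and 1.47 for M4, the second no longer called, and leaving the libraries out gave 3.26 and 1.89, neither of them called. The log2 fold change of M4 against M3 was -1.36 (SE 0.50), not called.

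CXCL2 and CXCL3 (GROβ and GROγ) are near copies of CXCL1. Their coding sequences of 324 bases were 93.5% and 90.7% identical to that of CXCL1 and 94.4% identical to each other. The authors' counting divided some reads between CXCL2 and CXCL3: their expected counts were not whole in the same 4 libraries, while the sums of both were whole in all 8. CXCL1 counts were whole throughout. The levels of CXCL2 and CXCL3 are uncertain to that extent.

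CXCL3 (chr4:74902306-74904524, minus strand, 4 exons) had low levels, at 0.508 and 2.27 CPM (M1), 1.33 and 1.12 (M2), 5.36 and 9.70 (M3), and 3.01 and 2.54 (M4). Its order was that of CXCL1: M3 was highest, M4 next, and M1 and M2 overlapped. M3 stood above M1 by log2 2.44 (SE 0.65) and above M2 by 2.62 (SE 0.65), of which the first was called and the second was not. The call of M3 against M1 was lost with the doubted libraries exchanged (log2 3.03) and kept with both left out (3.89), and the value ran from 1.74 to 3.89 as 1 library at a time was left out. M3 against M2 was 2.15 exchanged and 2.75 with both left out. The M1 value depended on the doubted library M1 replicate 2, without which M4 against M1 moved from log2 1.00 to 2.45, and the exchange gave 1.59. CXCL2 (chr4:74962757-74964913, minus strand, 4 exons) measured 1.68 and 4.35 CPM (M1), 3.98 and 4.11 (M2), 3.67 and 4.16 (M3), and 4.36 and 2.72 (M4). All 4 lines overlapped, and its 6 log2 fold changes lay between -0.19 and 0.42 with an SE of 0.46. The lone low library was M1 replicate 1, and with the doubted libraries left out the log2 fold changes against M1 were 1.29 in M2, 1.22 in M3 and 1.08 in M4, none of them called. With the libraries exchanged all 6 lay between -0.26 and 0.58. Summed into 1 gene, CXCL1, CXCL2 and CXCL3 gave log2 2.72 for M3 against M1 and 2.82 for M3 against M2, both called. The sum gave 1.42 for M4 against M1 and 1.51 for M4 against M2, neither of them called.

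CXCL5 (chr4:74861359-74864394, minus strand, 4 exons) and CXCL6 (chr4:74702357-74714781, plus strand, 4 exons) are further CXCR2 ligands, with 87.5% identity between their coding sequences. CXCL5 had 1 count, in M4 replicate 2, and CXCL6 had 4 counts, in M4 replicate 1. Every other library held 0 counts of either gene, which allows up to 0.0431 CPM at 3 counts. No fold change was computed for these 2. CXCL6 overlaps the pseudogene PPBPP1 and CXCL5 an antisense transcript, and the use of read strand in the counting is not given in the sources used here.

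CXCL14 (BRAK, which attracts monocytes and immature dendritic cells) lies at chr5:134906369-134914969 on the minus strand with 4 exons. It measured 25.2 and 10.2 CPM (M1), 0.167 and 0.0569 (M2), 0.227 and 0.367 (M3), and 0.0352 and 0.0384 (M4). M1 stood above every library of the other lines. The counts behind these values were 2082 and 833 (M1), 17 and 4 (M2), 18 and 32 (M3), and 4 and 3 (M4), so that M4 was at the detection limit. Scaled for library size, M1 held 145 times the CXCL14 counts of M2 (95% counting interval 94.7 to 235), 58.8 times those of M3 (44.5 to 79.5) and 484 times those of M4 (235 to 1205), intervals that cover counting error only. The fitted log2 fold changes against M1 were -7.22 (SE 0.68) in M2, -5.88 (SE 0.63) in M3 and -8.86 (SE 0.76) in M4. M4 was also below M3 (log2 -2.98, SE 0.73), at counts too low to carry a precise ratio. With the doubted libraries left out, the log2 fold changes against M1 were -8.75 in M2, -6.39 in M3 and -9.37 in M4. With them exchanged, M1 and M2 each held 1 high and 1 low library, and the values became -1.31, -5.40 and -8.38, none of them called. M4 against M3 was -2.97 in that fit, also not called. An antisense transcript and SLC25A48 overlap CXCL14 on the opposite strand.

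**Figure D2:**
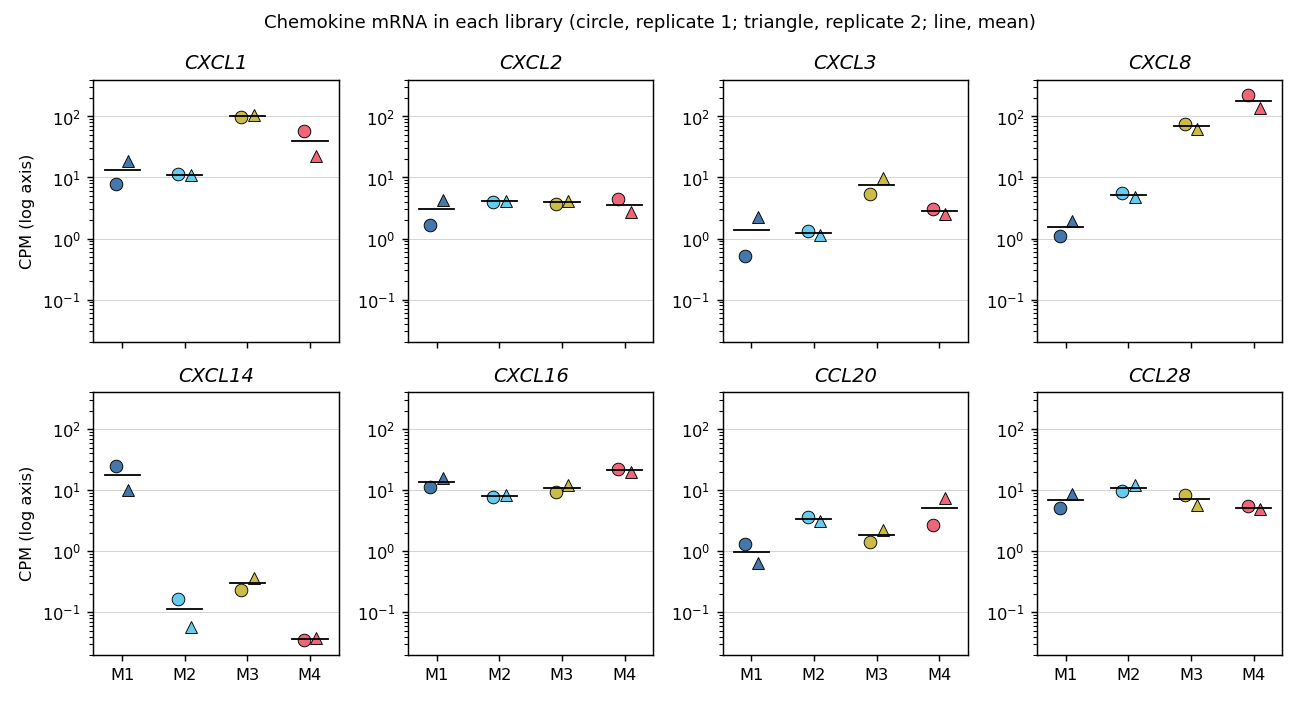
CPM of the 8 chemokine genes with enough counts in each library, on a log axis, by line; circles are replicate 1, triangles replicate 2 and black lines the mean of both. CXCL8 has 1.11 and 1.95 CPM (M1) against 227 and 135 CPM (M4), CXCL1 and CXCL3 are highest in M3, CXCL2 overlaps in all lines, and CXCL14 is above 10 CPM in M1 only (by the sample labels).

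CXCL16, a transmembrane chemokine that also acts as a scavenger receptor, lies at chr17:4636828-4643223 on the minus strand with 6 exons. It measured 11.3 and 15.8 CPM (M1), 7.80 and 8.36 (M2), 9.30 and 12.1 (M3), and 22.6 and 19.9 (M4). M4 was highest and M2 lowest, both without overlap, and M1 and M3 overlapped. The log2 fold change of M4 was 1.40 (SE 0.23) against M2, 0.99 (SE 0.23) against M3 and 0.65 (SE 0.23) against M1. The value against M2 was 0.81 with the doubted libraries exchanged, no longer called, and 1.34 with both left out, and that against M1 was 1.16 and 0.91, neither of them called. MED11 and ZMYND15 overlap CXCL16 on the opposite strand.

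CCL20 (chr2:228670455-228682280, plus strand, 4 exons) measured 1.29 and 0.634 CPM (M1), 3.63 and 3.13 (M2), 1.40 and 2.26 (M3), and 2.65 and 7.51 (M4). M1 was lowest without overlap, and the 2 M4 libraries lay on either side of M2. M4 stood above M1 by log2 2.39 (SE 0.58), a value that was 1.48 without M4 replicate 2, 1.04 with the doubted libraries exchanged and 1.97 with both left out, and was not called in any of these 3. The log2 fold change of M2 against M1 was 1.81 (SE 0.57), -0.39 after the exchange and 1.28 with both left out, not called in any of these. CCL28 (chr5:43376747-43412493, minus strand, 3 exons) measured 5.08 and 8.78 CPM (M1), 9.82 and 12.0 (M2), 8.48 and 5.63 (M3), and 5.45 and 4.86 (M4). Its highest values were in M2 and its lowest in M4 and 1 library of M1. The log2 fold change between M4 and M2 was -1.08 (SE 0.33), -1.01 with the doubted libraries exchanged and -1.23 with both left out. It was not called in any of these, but was called by DESeq2 (-1.06) and with only the 2 lines fitted (-1.07), among other alternatives. By the labels, the CCL28 fold changes ran from -1.08 to 0.66 on the log2 scale. The value of M2 against M1, 0.66, was 0.48 with the libraries exchanged and 1.25 with both left out, neither of them called.

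Levels of different genes were compared per kilobase of transcript. In M1 the leading members were CXCL1 at 11.1 and CXCL14 at 10.5 CPM per kb, followed by CXCL16 at 5.84, with CXCL8 last of the 8 at 0.933. The 2 M1 libraries did not share this order, since CXCL14 made up 46.4% of the summed length-scaled level in replicate 1 and 15.4% in replicate 2. In M2 CXCL1 led at 9.42, ahead of CCL20 at 4.05. CXCL1 led again in M3 at 88.2, with CXCL8 second at 42.0. In M4 the order of these genes was turned round, with CXCL8 at 110 and CXCL1 at 34.3, and CXCL16 next at 9.15. The share of CXCL8 in the summed level was 2.10% and 3.03% (M1), 11.9% and 10.2% (M2), 31.2% and 24.8% (M3), and 66.04% and 65.8% (M4). CXCL1 made up 57.4% and 60.2% in M3 and 23.7% and 15.1% in M4. The share of CXCL8 was alike in the M4 libraries although their summed levels, 209.8 and 125 CPM per kb, were not.

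**Figure D3:**
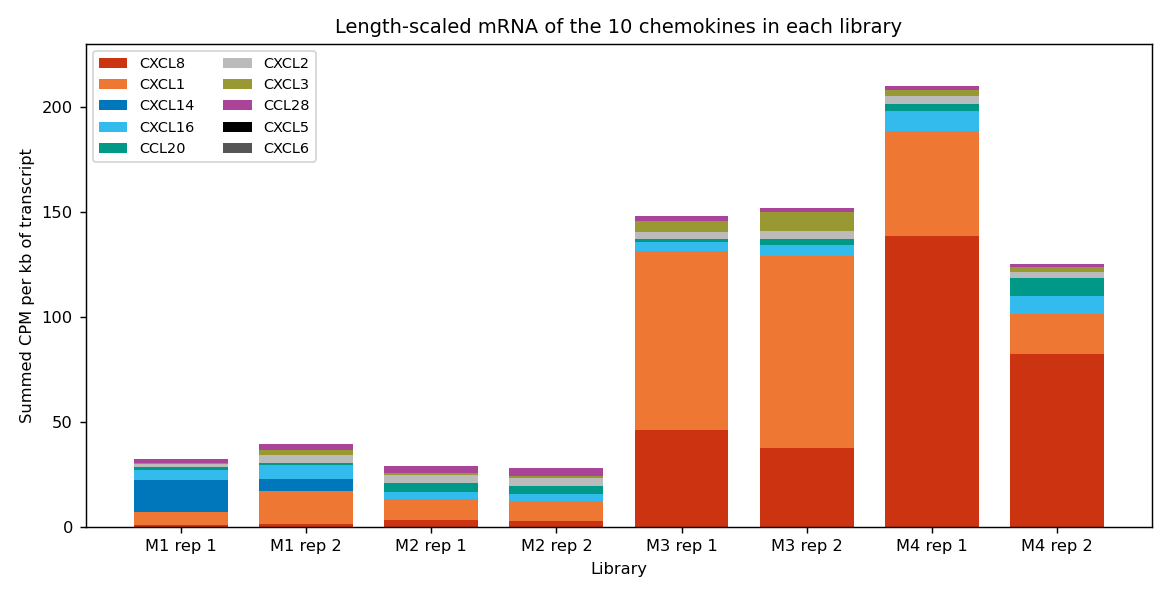
Summed CPM per kilobase of transcript of the 10 chemokines in each library, with bars divided by gene. The sum is 28.0 to 39.2 in the M1 and M2 libraries, 148 and 152 in M3 and 209.8 and 125 in M4, and CXCL1 fills most of the M3 bars and CXCL8 most of the M4 bars.

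Since the members were chosen with such results known, the counts of calls are set beside the background over all 18431 genes tested and nothing is read from them. The gene lists below were also chosen with earlier results known, so their calls, medians and adjusted p-values are likewise descriptions. In M2 against M1, 1 of the 8 tested members was called higher (CXCL8; 2.26% of all genes) and 1 lower (CXCL14; 1.11%). In M3 against M1, 3 were called higher (CXCL1, CXCL3 and CXCL8; 8.02%) and 1 lower (CXCL14; 5.51%), and in M4 against M1 3 higher (CXCL1, CXCL8 and CCL20; 9.48%) and 1 lower (CXCL14; 11.2%). M3 against M2 gave 2 higher (CXCL1 and CXCL8; 2.95%) and 0 lower (1.2%). M4 against M2 gave 3 higher (CXCL1, CXCL8 and CXCL16; 6.98%) and 0 lower (6.94%). M4 against M3 gave 1 higher (CXCL8; 3.99%) and 1 lower (CXCL14; 6.3%). Scaling by total counts moved the median of all genes in M4 against M3 from -0.02 to 0.10, and the share of higher calls among all calls from 38.7% to 49.3%. Under that scaling the log2 fold change of CXCL16 in M4 against M3 was 1.11 and was called. The main value of 0.99 lay just under the limit on fold change. CXCL16 was also called there by DESeq2 and with DESeq2 size factors (log2 1.02 in each), among other alternatives. The 3 comparisons with M1 share its libraries, as do the 3 with M2, so their values are not independent.

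**Figure D4:**
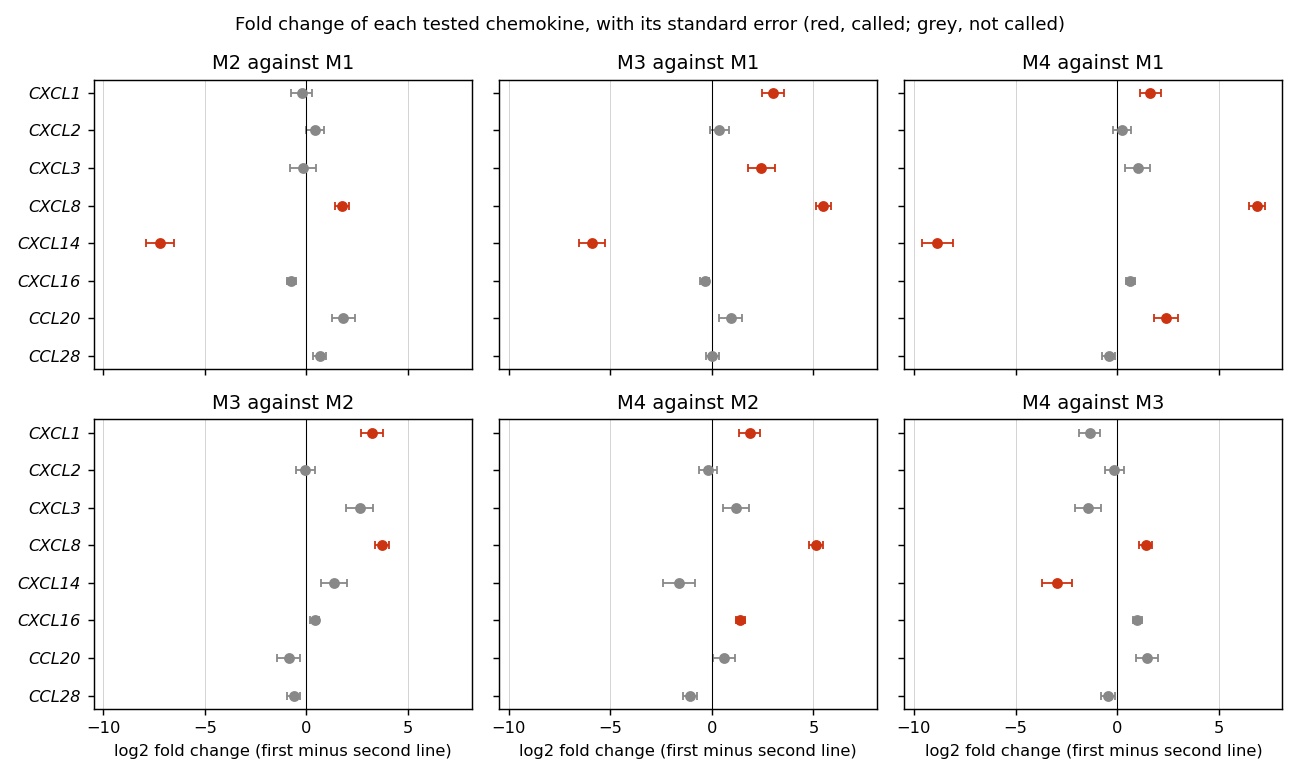
Log2 fold change of the 8 tested chemokine genes in the 6 comparisons of lines, with bars of 1 standard error; red marks genes called at an adjusted p under 0.05 and beyond 1 on the log2 scale. CXCL8 lies above 0 in all 6 comparisons, from 1.40 in M4 against M3 to 6.89 in M4 against M1, and CXCL14 lies far below 0 in the 3 comparisons with M1.

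The receptors of these chemokines were scarce. CXCR2, shared by the cluster ligands, had at most 2 counts in any library. CXCR1, the receptor for CXCL8 and CXCL6, had 7 and 9 counts (M1), 10 and 8 (M2), 47 and 81 (M3), and 45 and 37 (M4), and rose in M3 against M2 (log2 2.84, SE 0.55, adjusted p = 0.0277 by edgeR) and in M4 against M2 (log2 2.03, SE 0.54, adjusted p = 0.0329). Neither call held with the doubted libraries exchanged (adjusted p = 0.0855 and 0.0706 by edgeR) or left out (0.215 and 0.202). CXCR6, the receptor of CXCL16, had 9 to 28 counts in M1, M2 and M3 and 142 and 66 in M4, and rose in M4 against M3 (log2 3.05, SE 0.54, adjusted p = 0.0112, with the call kept in both cases). CCR6, CCR3 and CCR10, the receptors of CCL20 and CCL28, had at most 13, 15 and 11 counts. CXCR4, the receptor of CXCL12, had 27 and 18 counts in M2 and 0 counts in M3 and M4, and fell in M3 against M2 (adjusted p = 0.0422), a call lost with the libraries exchanged (0.210) or left out (0.243). Of 22 receptors listed, 10 were tested, and the calls were 1 higher and 1 lower in M3 against M2 (2.95% and 1.2% of all genes), 2 higher and 1 lower in M4 against M2 (6.98% and 6.94%) and in M4 against M1 (9.48% and 11.2%), 2 higher in M4 against M3 (3.99%), 1 higher in M3 against M1 (8.02%) and 0 in M2 against M1. Of these 11 calls, 1 was kept with the doubted libraries exchanged and 1 with both left out, that of CXCR6 in M4 against M3.

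Most chemokines outside the set had few or no counts. Of 34 listed, 26 were matched and 7 were tested, with 10 calls over the 6 comparisons, of which 3 were kept with the doubted libraries exchanged and 7 with both left out. CX3CL1 (fractalkine) had 40 and 436 counts (M1), 82 and 51 (M2), 381 and 475 (M3), and 1 and 0 (M4), and fell in M4 against M3 (adjusted p = 0.00804), also with the doubted libraries exchanged or left out. CXCL17, a mucosal chemokine, had 49 and 34 counts (M1), 5 and 1 (M2), 9 and 6 (M3), and 500 and 77 (M4), and rose in M4 against M3 (log2 4.87, SE 0.86, adjusted p = 0.0112) and in M4 against M1 (log2 2.42, SE 0.74, adjusted p = 0.0408). The exchange ended both calls (0.124 and 0.219 by edgeR), and leaving the libraries out ended the second (0.180). PF4, a platelet chemokine of the same cluster as CXCL8, had 68 and 33 counts in M3 and at most 7 elsewhere, and rose in M3 against M2 (adjusted p = 0.0362). CXCL10, CXCL11, CCL22 and PPBP had at most 102 counts in any library, and CXCL11 rose in M4 against M1 (log2 2.87, SE 0.73, adjusted p = 0.0209). These calls of PF4 and CXCL11 were lost with the libraries exchanged and with both left out. Over these 7 genes the list median was -1.04 in M2 against M1, 0.08 in M3 against M1, 0.34 in M4 against M1 (0.03 with groups at 0 counts set to the detection limit), 1.12 in M3 against M2, 2.17 in M4 against M2 and 1.83 in M4 against M3, where the medians over all genes were -0.04 to -0.00.

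NF-κB is a dimer of REL-family subunits held in the cytoplasm by inhibitors such as NFKBIA, and its targets include several of its own regulators. Of 16 subunits and regulators listed, 15 were tested. None was called in M2 against M1, M3 against M1 or M3 against M2, in which 2.26%, 8.02% and 2.95% of all genes were called higher. In M4 against M1, M2 and M3, 3 were called higher and 0 lower each time, beside 9.48%, 6.98% and 3.99% of all genes called higher. NFKB2, the p100/p52 subunit, measured 29.6 and 34.2 CPM (M1), 27.6 and 26.7 (M2), 46.7 and 38.3 (M3), and 130 and 135 (M4). It rose in M4 against M2 (log2 2.29, SE 0.15, adjusted p = 0.00031 by edgeR). In M3 against M2 its log2 fold change was 0.64 (SE 0.15, adjusted p = 0.0476 by edgeR), below the limit on fold change. TNFAIP3 (A20), a deubiquitinase that limits NF-κB signalling, measured 7.78 to 13.31 CPM in the other lines and 94.6 and 64.9 in M4 (log2 3.07 against M2, SE 0.26, adjusted p = 0.000608). The calls of NFKB2 and TNFAIP3 held with the doubted libraries exchanged and with both left out. RELB, the partner of p52, rose in M4 against M2 (log2 1.30, SE 0.23, adjusted p = 0.00772, but log2 0.59 and 0.357 after the exchange), and TNIP1 rose in M4 against M1 (log2 1.03, SE 0.27, adjusted p = 0.0223), a call lost in both cases. RELA measured 57.0 to 71.3 CPM in M1, M2 and M3 and 115 and 97.1 in M4, below the limit on fold change at log2 0.59 against M2. NFKB1, NFKBIA, CHUK and IKBKB were called in no comparison. In M4 against M2 the list median was 0.47, beside -0.01 over all genes, and 2 of its genes were called with the doubted libraries exchanged and 3 with both left out.

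Of 27 NF-κB targets other than chemokines, listed with earlier results of these data known, 26 were matched and 21 tested. The calls were 1 higher in M2 against M1 (2.26% of all genes), 6 higher and 2 lower in M3 against M1 (8.02% and 5.51%), 11 higher and 1 lower in M4 against M1 (9.48% and 11.2%) and 4 higher and 2 lower in M4 against M3 (3.99% and 6.3%). In M3 against M2, 4 were called higher and 1 lower (2.95% and 1.2%), and in M4 against M2 9 higher and 1 lower (6.98% and 6.94%), with list medians of 1.22 and 1.86 where the medians of all genes were -0.00 and -0.01. ICAM1, a leukocyte adhesion molecule, measured 0.242 and 1.04 CPM (M1), 0.412 and 0.483 (M2), 29.1 and 21.4 (M3), and 12.7 and 6.99 (M4). Like CXCL1 it was highest in M3, and it rose there against M2 by log2 5.82 (SE 0.69, adjusted p = 0.00541). IL1B, an inducer of chemokine transcription, measured 0.834 and 0.427 CPM (M1), 0.540 (both M2 libraries), 13.7 and 8.85 (M3), and 91.7 and 33.6 (M4). Its order was that of CXCL8, except that M1 and M2 overlapped, with log2 4.38 (SE 0.57, adjusted p = 0.00754) in M3 against M2 and 6.85 (SE 0.62, adjusted p = 0.000816) in M4 against M2. LIF, a cytokine of the interleukin-6 family, rose by 3.36 (SE 0.50, adjusted p = 0.0138) in M3 and 4.78 (SE 0.53, adjusted p = 0.00187) in M4 against M2. LCN2 (lipocalin-2) measured 106.7 and 10.8 CPM in M4 and 0.207 to 9.27 elsewhere (log2 6.50 in M4 against M2, SE 1.21, adjusted p = 0.0105), with the M4 libraries far apart. CSF2 (GM-CSF) had 0 counts in both M1 libraries and 1.60 and 3.00 CPM in M4, and rose (adjusted p = 0.000948 in M4 against M1). TNF stayed at or under 0.218 CPM. SAA2, an acute-phase protein, fell in M4 against M2 (log2 -2.46, SE 0.56, adjusted p = 0.0188 by edgeR). IRF1 fell in M3 against M2 (log2 -1.37, SE 0.24, adjusted p = 0.0197 by edgeR). With the doubted libraries exchanged, 3 targets were called in M3 against M2 and 8 in M4 against M2, and with both left out 3 and 7. The calls of ICAM1, LIF and CSF2 given here held in both cases, as did that of IL1B in M4. Leaving the libraries out ended the call of IL1B in M3 against M2 (adjusted p = 0.0718 by edgeR) and that of LCN2 (0.0983). The calls of SAA2 and IRF1 were lost in both cases. Whether NF-κB or any of these genes had a part in the chemokine levels was not tested.

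**Figure D5:**
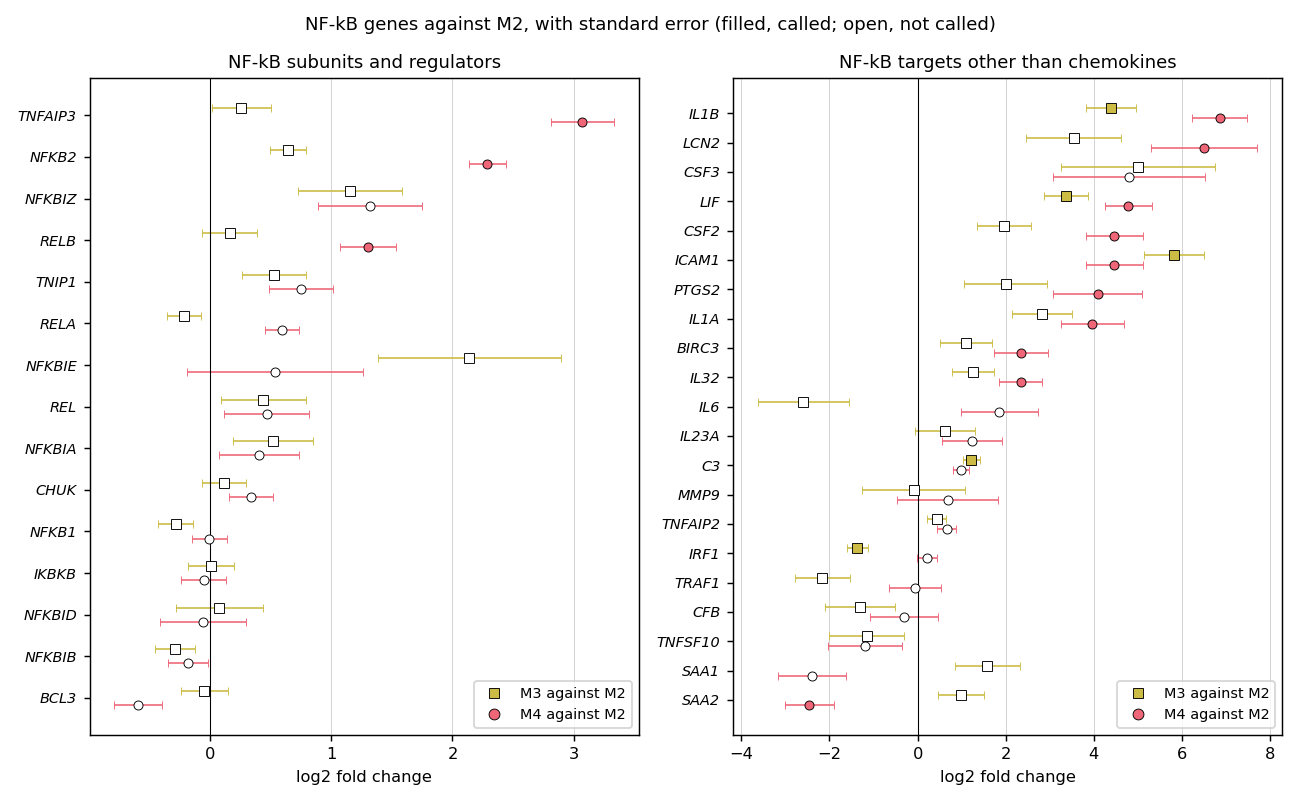
Log2 fold change against M2 of the tested NF-κB subunits and regulators (left) and NF-κB targets other than chemokines (right), with bars of 1 standard error; squares are M3, circles M4, and filled symbols mark called genes. Both comparisons share the M2 libraries. TNFAIP3, NFKB2 and RELB are filled in M4 and none of the regulators is filled in M3, while ICAM1, IL1B and LIF are filled in both.

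Many chemokine mRNAs carry AU-rich elements and are short-lived, and ZFP36-family proteins and KHSRP promote their decay while ELAVL1 protects them. The mRNAs of the members were not examined for such elements. All 10 listed regulators of decay were tested. ZFP36, ELAVL1, KHSRP and ZC3H12A were called in no comparison, with log2 fold changes between -0.28 and 0.33. ZFP36L1 rose in M3 against M2 (log2 1.32, SE 0.22, adjusted p = 0.0179), ZFP36L2 rose in M4 against M1 (log2 1.12, SE 0.30, adjusted p = 0.0243), and TIA1 fell in M4 against M2 (log2 -1.05, SE 0.22, adjusted p = 0.0137). Of the 5 calls in this list over the 6 comparisons, 1 was kept with the doubted libraries exchanged (TIA1 in M4 against M2) and 0 with both left out. Of the proteases, ADAM10 and ADAM17, which release CXCL16 from the membrane, and ANPEP were tested and none was called.

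Genes that lie beside the chemokine cluster on chromosome 4 include the EGF-family ligands. Of 12 neighbours, 9 were tested, with 3 called higher in M2 against M1 (2.26% of all genes), 6 in M3 against M1 (8.02%), 2 in M4 against M1 (9.48%), 3 in M3 against M2 (2.95%) and 2 in M4 against M2 (6.98%), and 0 lower in these. M4 against M3 gave 0 higher (3.99%) and 1 lower (6.3%). Of the tested neighbours, PF4 and PPBP are chemokines that also stood in the list of other chemokines, so calls of PF4 count in both lists. EREG (epiregulin) measured 0.749 and 0.768 CPM (M1), 7.20 and 7.86 (M2), 47.8 and 87.6 (M3), and 79.2 and 100.1 (M4), and rose in M2 against M1 (log2 3.31, SE 0.31, adjusted p = 0.00605) and in M3 against M2 (log2 3.17, SE 0.29, adjusted p = 0.00247). The M3 and M4 values of EREG overlapped, unlike those of CXCL8. AREG (amphiregulin) measured 25.8 and 90.4 CPM (M1), 378 and 367 (M2), 607 and 812 (M3), and 312 and 218 (M4), and rose in M2 against M1 (log2 2.68, SE 0.54, adjusted p = 0.0384). MTHFD2L rose in M2 against M1 by log2 1.17 (SE 0.25, adjusted p = 0.041), and PARM1 rose in M3 against M2 by 4.76 (SE 0.66, adjusted p = 0.00849), from at most 0.108 CPM to 2.26 and 1.69. With the doubted libraries exchanged none of these neighbours was called in any comparison, and with both left out 1 was called in M2 against M1, 2 in M3 against M2 and 2 in M4 against M2. The calls given here of AREG, of PARM1 and of EREG in M3 against M2 were kept with both left out, and those of MTHFD2L and of EREG in M2 against M1 were not.

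The genes most like each member over the 8 libraries were sought among 9369 non-members with a mean of at least 10 CPM, by Pearson's r of log values. All genes share the same 8 libraries and the same 4 lines, so a high r says little beyond a similar order of the lines. For CXCL2, whose lines overlapped, r can rest on single libraries. RASA1 (a GTPase-activating protein of RAS, r = 0.995) and SH3TC2 (r = 0.994) were nearest to CXCL8, with mean levels of 29.1 and 12.2 CPM in M1 and 77.6 and 69.6 in M4. SLIT3 (r = 0.972) and DPYSL2 (r = 0.963) were nearest to CXCL1, and SMOC1 (r = 0.980) and again DPYSL2 (r = 0.978) to CXCL3. SLIT3, a secreted guidance protein, averaged 0.628 CPM (M1), 0.613 (M2), 41.4 (M3) and 3.54 (M4). It thus passed the limit of 10 CPM only through M3, where CXCL1 was highest, so the filter had a part in that likeness. DNAAF9 and RHOV (r = 0.973 and 0.972) were nearest to CXCL14, and HIP1R and MARVELD3 (r = 0.989 and 0.984) to CXCL16. RHOV likewise passed the limit only through M1, where CXCL14 was highest, with means of 32.2 CPM (M1), 4.83 (M2), 6.98 (M3) and 3.91 (M4). HPS6 and DROSHA (both r = 0.972) were nearest to CCL20, NREP and MEX3D (r = 0.968 and 0.960) to CCL28, and FAM118B and INTS4 (r = 0.938 and 0.919) to CXCL2. Among the members, CXCL1 and CXCL3 had the highest r, 0.941, ahead of CXCL1 and CXCL8 at 0.779, and CXCL14 and CCL20 had the lowest, -0.783.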

How the data were processed

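Gene expression in acini of the 4 lines (M1 to M4, 2 biological replicates each) was taken from 1 deposited table, whose values are RSEM expected counts. For it the authors trimmed poly A+ selected paired-end reads with Trimmomatic, aligned them to hg19 with STAR and counted them with STAR/RSEM on GENCODE v19; versions are not given in the sources used here. Picard is also named in the submitters' processing notes. The deposited values are not normalized, 12.8% are not whole, and they were rounded.

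Groups came from the sample labels. Of the 56632 identifiers, 94.4% had a symbol; CCL3, CCL4, CCL5, CCL14, CCL15, CCL16, CCL18, CCL23, IKBKG, SOD2 and PECAM1 were not matched. edgeR 4.0.16 in R 4.3.3 was used for quasi-likelihood F tests (robust, TMM scaling, filterByExpr, 1 coefficient per line, 8 libraries), with Benjamini-Hochberg adjustment over 18431 genes. A call needed an adjusted p under 0.05 and an absolute log2 fold change above 1. The SE is that implied by the F statistic. CPM used TMM library sizes; with totals of 69669970 to 107350344 counts, 3 counts mark the detection limit. DESeq2 1.42.0, limma 3.58.1, Python 3.11.15, matplotlib 3.10.9, scipy 1.17.1, numpy 2.4.6 and pandas 2.3.3 were also used, and the fit was tested on simulated data. Annotation was GENCODE release 44 on GRCh37; promoters were RefSeq's, on GRCh38.p14.

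The members and all lists were chosen with earlier results of these data known. All members are named in full, as are known receptors of members. From each other list, at most 3 called genes by absolute fold change with at least 100 counts in both libraries of the higher line were named. This was done for M2 against M1, M3 against M2, M4 against M2 and M4 against M1. CX3CL1, CXCL17, CXCL11, PF4, CXCR4, RELA, SAA2, IRF1, CD68, CD14, LYZ, ITGAM, the epithelial markers and the uncalled genes were named after their values were seen. The 2 libraries named differently in the study's table were found by matching 268 genes. Alternatives were other scalings, filters, thresholds and samples in the fit, DESeq2, a replicate block, CXCL1 to CXCL3 summed, the exchange of 2 libraries, and leaving libraries out. 1 leukocyte marker is not reported here.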

Additional observations from a re-analysis of the deposited data

How the results depend on the processing

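Of 815 fold changes of members under an alternative, 737 moved by less than the spread between replicates and 77 moved by more. For 1, the called value changed sign: CXCL8 in M2 against M1 with the doubted libraries exchanged (-0.028). Whether a call was kept did not enter these counts. The 17 calls of members were lost 60 times and 35 were gained. Counts of members called (2 in M2 against M1, 4 in M3 against M1, 4 in M4 against M1, 2 in M3 against M2, 3 in M4 against M2 and 2 in M4 against M3) became, in that order, 0, 1, 2, 1, 1 and 0 with the libraries exchanged, when 0 genes of all were called in M2 against M1. With both left out, 1 was called in M2 against M1 and 1 in M3 against M2. Without a filter on low counts, 4 were called in M3 against M2, 6 in M4 against M2 and 5 in M4 against M3. A fit of only the 2 lines compared gave 1 in M2 against M1, 2 in M4 against M1 and 5 in M4 against M2, and DESeq2 gave 5 in M4 against M3.

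Leaving out 1 library, where the lone library of a line is assumed to vary like the others, gave 0 to 2, 3 to 4, 3 to 4, 1 to 3, 1 to 4 and 0 to 4 members in the same order. Of the 17 calls, 7 held without any 1 library: CXCL8 in M3 and M4 against M1 and against M2, CXCL1 in M3 against M1, and CXCL14 in M3 and M4 against M1. CXCL8 was lost in M2 against M1 without M1 replicate 1 or either M2 library, and in M4 against M3 without either M3 library or M4 replicate 1. CXCL14 was lost in M2 against M1 without either M2 library and in M4 against M3 without any library of these lines. CXCL1 in M3 against M2 was lost without any library of these lines, CXCL16 in M4 against M2 without either M2 library, and CCL20 in M4 against M1 without M1 replicate 2 or M4 replicate 2. CXCL1 was lost in 6 of the 8 cases in M4 against M1 and in 5 in M4 against M2, and CXCL3 in 7 in M3 against M1.

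Calls of the lists, summed over the 6 comparisons, were 10 for other chemokines (19 by DESeq2, 26 without a filter, 3 exchanged, 4 to 12 without 1 library), 11 for receptors (7 with the replicate block, 1 exchanged, 1 with both libraries left out, 2 to 8 without 1 library), 9 for NF-κB regulators (14 without a filter, 7 to 12 without 1 library) and 42 for NF-κB targets (83 without a filter, 27 exchanged, 22 to 49 without 1 library). They were 5 for regulators of decay (1 exchanged, 1 with both left out, 2 to 6 without 1 library), 0 for proteases (1 without a filter, 1 with only the 2 lines, 1 with no limit on the fold change, 0 to 1 without 1 library) and 17 for the chromosome 4 neighbours (0 exchanged, 10 to 18 without 1 library). The cause of these changes was not tested.

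Replicate numbers did not pair the libraries: the deviations of same-numbered libraries correlated at -0.02 to 0.12. With the number as a block, members called fell to 3 in M4 against M1 and 2 in M4 against M2 (CXCL1 in both), and CXCL16 was gained in M4 against M3. Depth limits CXCL14 in M2, M3 and M4, CXCL5, CXCL6 and most receptors, which had few counts.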
